A study of Mus musculus with 3 samples.

Results

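Dysferlin, caveolin-3, 3 calpains with their inhibitor calpastatin, and 4 annexins are genes for proteins that act at the muscle fibre membrane or in calcium-dependent proteolysis. The members were all probe sets whose only gene symbol is one of these 10, which gave 16 of the 22690 probe sets on the array. Every one of the 10 genes was measured, 4 of them by 2 or more probe sets. RNA was profiled on 1 array each for 3 normal mouse muscles, called muscle 1, 2 and 3 after their labels. They came from littermate controls aged 3 to 6 weeks in a study of tumours derived from Pax7-expressing satellite cells, the stem cells of muscle. The labels do not give the alleles of these littermates, the anatomical muscle or the sex, nor whether each sample is a different animal. An SD or p-value here therefore reflects the scatter of these arrays and could be purely technical. The treatment text speaks of 4-hydroxytamoxifen injected into the hindlimb of mice that formed tumours, and does not say whether littermates were injected. Tumour arrays were not analysed here. The study used these samples as the normal reference for its tumours, and with a single group there was no contrast between conditions to test.

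Contraction tears the membrane of muscle fibres, and calcium that enters through a tear triggers its repair. Dysferlin, a protein with several calcium-binding C2 domains, promotes the fusion of vesicles with the damaged membrane, and annexins, which bind acidic phospholipids when calcium rises, gather at the same place. Caveolin-3 forms the coat of the membrane pits called caveolae in muscle. Calpains are proteases activated by calcium, and calpastatin holds calpain-1 and calpain-2 in check. Loss of dysferlin, calpain-3 or caveolin-3 causes human muscular dystrophies.

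Sequence near the start sites was read first. The 250 bases before the most upstream start site were read from RefSeq (GRCm38.p6), which held 9 of the 10 genes. Anxa6 was not among them. The windows of Cav3, Capn3, Anxa1 and Anxa2 are printed because they hold the matches described next. Capitals mark matches, on either strand, to the E-box CANNTG, bound by the myogenic factors among others, to the MEF2 motif, to the TATA box TATAAA and to the GC box GGGCGG.

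Cav3: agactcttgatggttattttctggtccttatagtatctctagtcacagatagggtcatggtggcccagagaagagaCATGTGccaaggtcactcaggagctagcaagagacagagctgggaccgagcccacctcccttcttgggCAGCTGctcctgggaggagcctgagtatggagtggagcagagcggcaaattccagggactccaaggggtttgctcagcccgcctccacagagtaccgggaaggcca

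Capn3: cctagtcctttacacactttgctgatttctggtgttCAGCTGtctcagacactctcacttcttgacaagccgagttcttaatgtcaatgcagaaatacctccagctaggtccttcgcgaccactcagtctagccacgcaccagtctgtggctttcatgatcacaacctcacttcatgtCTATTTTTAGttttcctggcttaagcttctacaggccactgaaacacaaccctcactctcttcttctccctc

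Anxa1: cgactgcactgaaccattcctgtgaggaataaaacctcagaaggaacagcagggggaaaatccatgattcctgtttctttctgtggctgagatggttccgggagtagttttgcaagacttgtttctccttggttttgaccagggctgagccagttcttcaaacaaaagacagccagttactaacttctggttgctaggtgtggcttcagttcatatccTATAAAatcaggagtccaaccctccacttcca

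Anxa2: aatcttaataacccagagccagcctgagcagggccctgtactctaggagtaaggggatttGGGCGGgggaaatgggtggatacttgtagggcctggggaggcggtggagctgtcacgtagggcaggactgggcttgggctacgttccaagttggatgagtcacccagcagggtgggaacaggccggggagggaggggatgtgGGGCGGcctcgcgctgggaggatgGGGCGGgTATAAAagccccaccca

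The Cav3 window lies at chr6:112459255-112459504 on the plus strand and holds 2 E-boxes. The one nearer the start is CAGCTG, with its first base 106 bases upstream. The Capn3 window, at chr2:120463343-120463592 on the plus strand, holds the same CAGCTG with its first base 214 bases upstream and a MEF2 motif 72 bases upstream. CAGCTG is one form of the E-box. It was found in 13.0% of all 32851 upstream windows of this length and the MEF2 motif in 2.92%, while any E-box was found in 66.2%. Among the members E-boxes lay in 7 of 15 windows, counting every start site in the table, with those of Capn1, Capn2 and Anxa5 among them. CAGCTG was also in the window of the second Cast start site, with its first base 108 bases upstream. Another form, CACCTG, was in the most upstream Capn1 window, read on the other strand, and in 17.2% of all windows. The 2 annexin windows printed held no E-box. That of Anxa1, at chr19:20390672-20390921 on the minus strand, has a TATA box 32 bases upstream, and that of Anxa2, at chr9:69453433-69453682 on the plus strand, has a TATA box 17 bases upstream and 3 GC boxes. A TATA box was found in 12.4% of all windows and a GC box in 32.7%. In the most upstream window of Dysf none of these motifs was found, which says only that these letters are not in that window. Its second start site has 3 GC boxes and no E-box. A CArG box, also searched for, was in no member window, against 1.47% of all. These matches are a description and were not tested for binding.

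**Figure D1:**
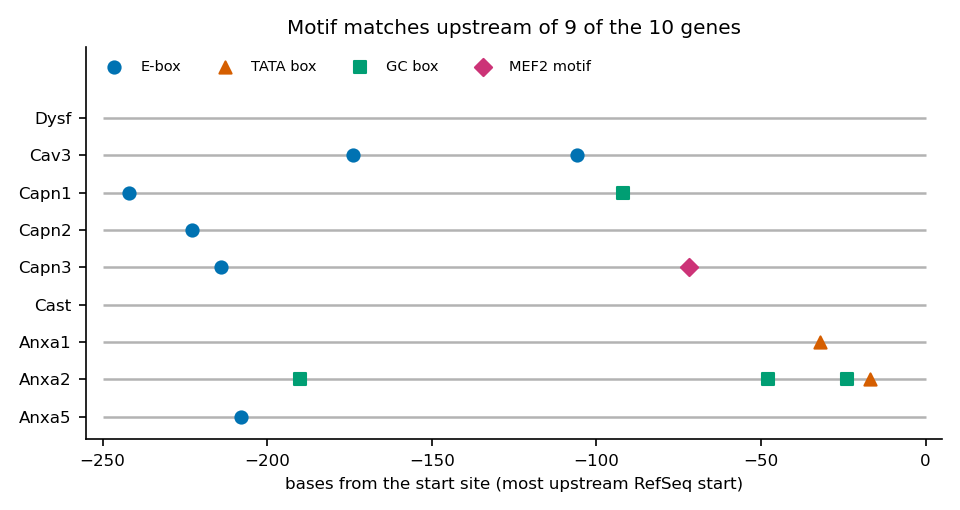
Matches to 4 motifs in the 250 bases upstream of the most upstream RefSeq start site of 9 genes; the horizontal axis is the distance in bases from the start and each symbol marks the first base of a match on either strand. Cav3 has E-boxes 174 and 106 bases upstream, Capn3 has an E-box and a MEF2 motif, and the TATA boxes belong to Anxa1 and Anxa2.

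All levels are log2 RMA values, as deposited, so a difference of 1 is a 2-fold difference. Probe sets bind their targets with different strength, so the level of one was not ranked against that of another. To set a background level, 70 genes typical of other organs were taken, and the 95th percentile of their 97 probe sets was 6.38, 6.45 and 6.31 in muscles 1, 2 and 3. A level below it does not show that a gene was silent. The labelled tissue was borne out by its markers: all 12 genes of the contractile apparatus and muscle metabolism on the list were above background in every muscle. The skeletal actin Acta1 was at 13.62, the creatine kinase Ckm at 13.61, titin (Ttn) at 13.25 and myoglobin (Mb) at 12.85 on average, each by its highest probe set. Muscle 3 stood apart from the other samples. This was seen among the 10126 probe sets with 1 gene that were above background in at least 1 muscle. Of these, 59 had a range of at least 1 between muscles, and in 53 muscle 3 was farthest from the others.

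All 10 genes had a probe set above background in all 3 muscles. Over the whole array 52.7% of 12394 genes did. With only probe sets without a suffix letter, 6 of the 10 genes did. With a gene's probe sets averaged 9 were above background, all but Anxa2. Counted by probe set, 12 of 16 were above background in every muscle, 1 in a single muscle and 3 in none, while over 20393 probe sets with 1 gene 45.2% were above it in every muscle.

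**Figure D2:**
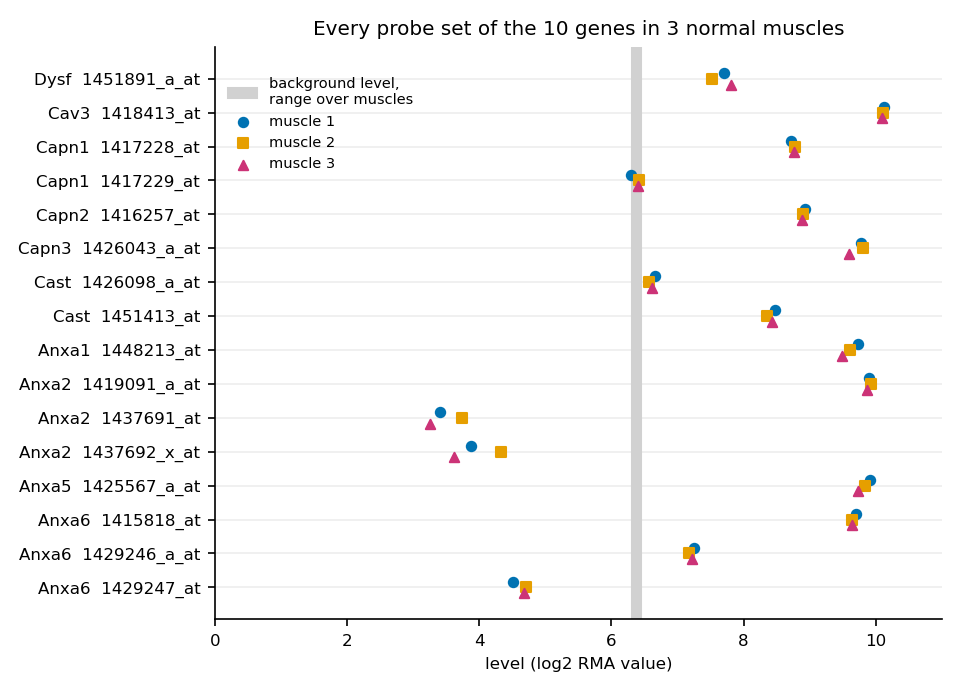
Level of each of the 16 probe sets (horizontal axis, log2 RMA value) in muscles 1 to 3, with the range of the background level over the muscles as a grey band. The 3 muscles nearly coincide in most rows, 1 probe set of Capn1 lies on the band, and 2 of Anxa2 and 1 of Anxa6 lie to the left of it.

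Dysferlin and caveolin-3, both membrane proteins of muscle fibres, were each measured by 1 probe set. Dysf (1451891_a_at) had levels of 7.70, 7.52 and 7.81 in muscles 1, 2 and 3, a mean of 7.68 ± 0.14 (SD, n = 3). Muscle 3 was highest and muscle 2 lowest, and the range of 0.286, or 1.22-fold, was the widest of the member probe sets above background. The SD of Dysf was larger than that of 76.2% of the 500 probe sets nearest to it in mean level. Cav3 (1418413_at) was at 10.13, 10.11 and 10.10 in muscles 1, 2 and 3, a mean of 10.11 ± 0.02. The muscles were almost level, with a range of 0.034, and only 9.8% of the 500 nearest probe sets had a smaller SD. The suffix _a marks a probe set that matches several transcripts of the same gene, so the Dysf value does not separate its transcripts.

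The calpains were above background by at least 1 probe set each. Calpain-1 and calpain-2 are the widely expressed forms and share the small subunit Capns1. Capn1 was measured by 2 probe sets. Its probe set 1417228_at was at 8.71, 8.78 and 8.75, a mean of 8.75 ± 0.03. The other, 1417229_at, was at 6.30, 6.41 and 6.41 and was above background in muscle 3 alone, by 0.099, while it was under it by less than that in the others. Both Capn1 probe sets were lowest in muscle 1 and highest in muscle 2. Capn2 (1416257_at) was at 8.93, 8.90 and 8.88, a mean of 8.90 ± 0.03, with a range of 0.060. The shared small subunit Capns1 was at 10.86 ± 0.04.

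Calpain-3, the calpain typical of skeletal muscle, which binds titin, varied more. Capn3 (1426043_a_at) had levels of 9.78, 9.80 and 9.60 in muscles 1, 2 and 3, a mean of 9.73 ± 0.11. Muscle 3 was 0.19 below the mean of the other 2, which lay close together. Of the 500 probe sets nearest in level 86.8% had a smaller SD. This probe set too matches several transcripts of the gene.

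Calpastatin, the inhibitor, was measured by 2 probe sets. Cast by 1451413_at was at 8.47, 8.35 and 8.43, a mean of 8.42 ± 0.06, and by 1426098_a_at at 6.66, 6.57 and 6.61, a mean of 6.61 ± 0.04. Both had the same order of muscles, with muscle 1 highest and muscle 2 lowest. The second cleared the background by only 0.13 in muscle 2, and its excess was largest in muscle 3, at 0.30. Cast has 4 start sites in the RefSeq table, and the files do not pair the probe sets with transcripts.

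Of the annexins, Anxa1 is known for its action against inflammation, and Anxa2 joins with S100a10 into a complex at membranes. Anxa1 (1448213_at) had levels of 9.72, 9.61 and 9.49 in the same order of muscles, a mean of 9.61 ± 0.11. The range was 0.230, or 1.17-fold, and 89.8% of the 500 nearest probe sets had a smaller SD, the highest share among the members. Anxa2 (1419091_a_at) was at 9.90, 9.92 and 9.87, a mean of 9.89 ± 0.02, with only 15.2% of the nearest probe sets tighter. The muscles were nearly level for Anxa2 by that probe set.

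The other Anxa2 probe sets gave no signal above background. By 1437691_at the values were 3.41, 3.73 and 3.26, and by 1437692_x_at 3.88, 4.33 and 3.62. Both had muscle 2 highest and muscle 3 lowest. The platform annotation gives them no reference accession, and the suffix _x marks probes found in other sequences as well. Their ranges, 0.475 and 0.715, were the widest of the 16, at levels where the value is not well separated from background.

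Annexin A5, the protein used in the laboratory to stain dying cells, followed the order of Anxa1. Anxa5 (1425567_a_at) was at 9.92, 9.84 and 9.73, a mean of 9.83 ± 0.09. Muscle 1 was highest and muscle 3 lowest, 0.15 below the mean of the other 2, and 82.8% of the nearest probe sets had a smaller SD. Annexin A6, which has a doubled annexin core, was measured 3 times. Anxa6 by 1415818_at was at 9.70, 9.65 and 9.64, a mean of 9.66 ± 0.03, and by 1429246_a_at at 7.25, 7.17 and 7.21, a mean of 7.21 ± 0.04. Muscle 1 was highest in both. The third, 1429247_at, was below background in every muscle, at 4.51, 4.71 and 4.67, and there muscle 1 was lowest.

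No member was called as varying more between muscles than probe sets of like level. By limma's test of each variance against the variances of probe sets of like level, with Benjamini-Hochberg adjustment over 10126 probe sets above background in at least 1 muscle, 0 of the 13 member probe sets tested were called, and 0 had an unadjusted p under 0.05. Over all those tested, 0.079% were called and 4.85% had an unadjusted p under 0.05. The first share is 8 probe sets, which became 24 after quantile normalization, 2 without muscle 3 and 0 without muscle 1 or without muscle 2. The lowest adjusted p among members was 0.988, and the lowest unadjusted p was 0.108, for Capn3 and Anxa1. A range of at least 1 was found for 0 of the 13, against 0.583% of all tested. In data simulated with the real levels, limma's test called 48% of probe sets moved by 1 in 1 muscle and 99% of those moved by 2. All of these, 100 of each size, were moved in the same simulated data. That eases the Benjamini-Hochberg cutoff, so the shares need not hold where few probe sets move. Smaller moves, such as the differences seen here, were not simulated.

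The members had a median SD of 0.043, against 0.081 over all probe sets tested. Spread fell as level rose over the probe sets tested, so each SD was also set beside the 500 of nearest mean. In 9 of 13 probe sets it was under the median of those neighbours. The 4 above it were Dysf, Capn3, Anxa1 and Anxa5, each measured by that probe set alone.

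**Figure D3:**
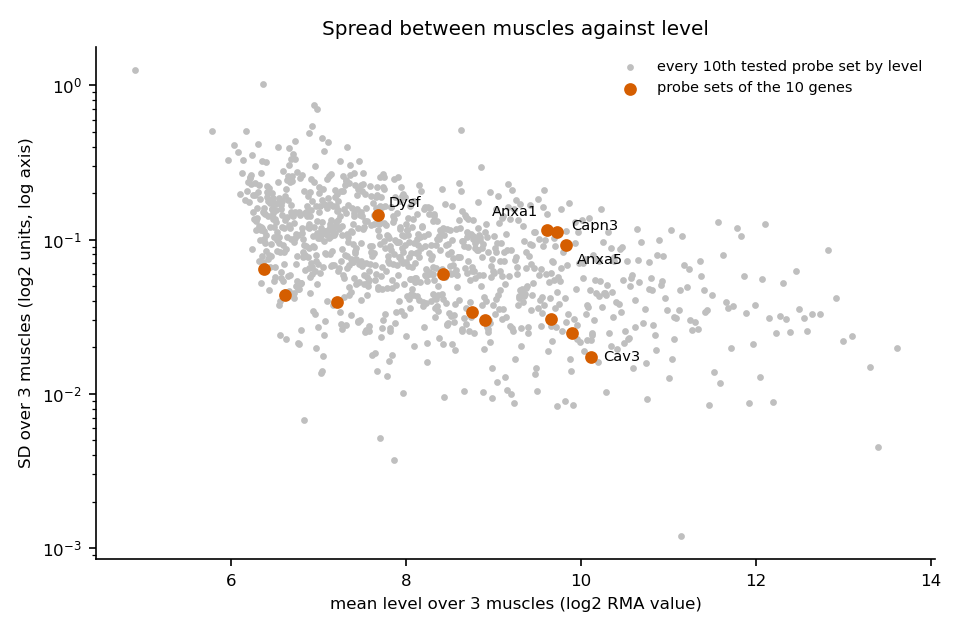
SD over the 3 muscles (vertical, log axis, log2 units) against mean level (horizontal, log2 RMA value) for 1 in every 10 probe sets tested, in grey, and the 13 member probe sets tested, in orange. Dysf, Anxa1, Capn3 and Anxa5 lie in the upper part of the cloud at their level and Cav3 in the lower part.

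The direction of these small differences depended on the scaling for most members. The departure of a muscle is its level minus the mean of the other 2. As deposited, 8 of 13 probe sets were highest in muscle 1 and 7 lowest in muscle 3, while over all probe sets tested 39.6% were highest in muscle 1 and 47.2% lowest in muscle 3. The median departure of the 13 was 0.05, -0.0044 and -0.02 in muscles 1, 2 and 3, and over all tested it was 0.02, 0.01 and -0.04. After quantile normalization of the 3 columns 6 of the 13 kept their order of muscles, and 3 were lowest in muscle 3. Dysf, Capn3, Anxa1 and Anxa5 were among the 6. In muscle 3 Capn3 then departed by -0.14, Anxa1 by -0.13, Anxa5 by -0.10 and Dysf by 0.24. Among the 13, the probe sets of Capn1, of Cast and of Anxa6 then no longer shared their highest muscle within each gene. They shared the lowest, which was muscle 1 for Capn1 and muscle 2 for Cast and Anxa6. As deposited Capn1 and Cast shared it too. The Anxa6 probe sets did not, with 1415818_at lowest in muscle 3 and 1429246_a_at in muscle 2.

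**Figure D4:**
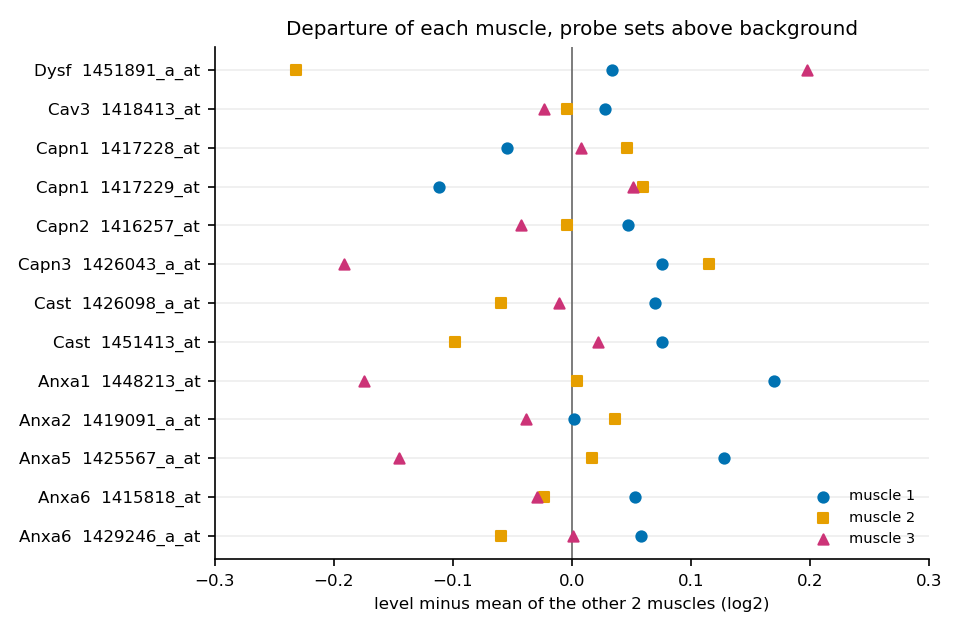
Level in each muscle minus the mean of the other 2 (horizontal, log2 units) for the 13 member probe sets above background in at least 1 muscle. Capn3, Anxa1 and Anxa5 are lowest in muscle 3 and Dysf is highest there, and no departure exceeds 0.231 in size.

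Genes of the same families and pathway were detected unevenly. Of 49 such genes listed, 39 were measured and 28 had a probe set above background in all 3 muscles, against 52.7% of all genes. None of their 46 probe sets tested was called by limma's variance test, and 0 had an unadjusted p under 0.05 or a range of at least 1. The levels given next are those of the highest probe set.

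All 6 other caveolins and cavins were above background in each muscle. The 6 became 5 with the background at the 99th percentile or with a gene's probe sets averaged. With only probe sets without a suffix letter they became 4. Caveolin-1, which forms caveolae outside muscle fibres, was at 11.21 ± 0.06 (Cav1), and its partner Cav2 was at 9.90 ± 0.05. The cavins build the coat around caveolins. Cavin1 was at 9.91 ± 0.06, Cavin2 at 10.49 ± 0.05, and Cavin4, the cavin typical of muscle, at 9.72 ± 0.03. Of the other ferlins neither measured gene was detected. Myof (myoferlin), which acts in the fusion of myoblasts, was at 5.68 ± 0.12. Its probe set has the suffix _s, which marks transcripts of several genes. Otof (otoferlin), known from the hair cells of the ear, was at 4.41 ± 0.29. Of the 3 ferlin genes measured, Dysf alone had a probe set above background in every muscle, and with the background at the 99th percentile of its genes none did, since Dysf was then below it in muscles 1 and 2.

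Among 9 other calpain genes 4 were above background in every muscle, Capns1, Capn6, Capn7 and Capn15, and 5 in none. Capn7 was at 9.05 ± 0.09, by a probe set that also has the suffix _s, and Capn6 at 7.45 ± 0.11, whereas Capn5 was at 5.06 ± 0.26. The 4 became 2 with the background at the 99th percentile, with a gene's probe sets averaged, or with only probe sets without a suffix letter. Of 7 other annexin genes 3 were above background in every muscle and 4 in none, and with the background at the 99th percentile the 3 became 1. Anxa3 was at 7.49 ± 0.04, Anxa4 at 8.07 ± 0.12 and Anxa7 at 8.04 ± 0.13, while Anxa8 was at 5.78 ± 0.13. Anxa4 and Anxa7 also had other probe sets at or below 6.58.

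All 15 measured partners had a probe set above background in every muscle, and 9 did with only probe sets without a suffix letter. With a gene's probe sets averaged 12 partners were above it. S100a10, which binds Anxa2, was at 10.21 ± 0.11, and Ahnak, a very large protein bound by that complex and by dysferlin, at 10.71 ± 0.01. The calcium-binding protein S100a6 was at 9.89 ± 0.06 and Ehd1, which shapes membranes in endocytic recycling, at 8.28 ± 0.09. Trim72, a muscle protein that acts with dysferlin in repair, was on the list but had no probe set under its symbol alone, so it was not analysed here.

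**Figure D5:**
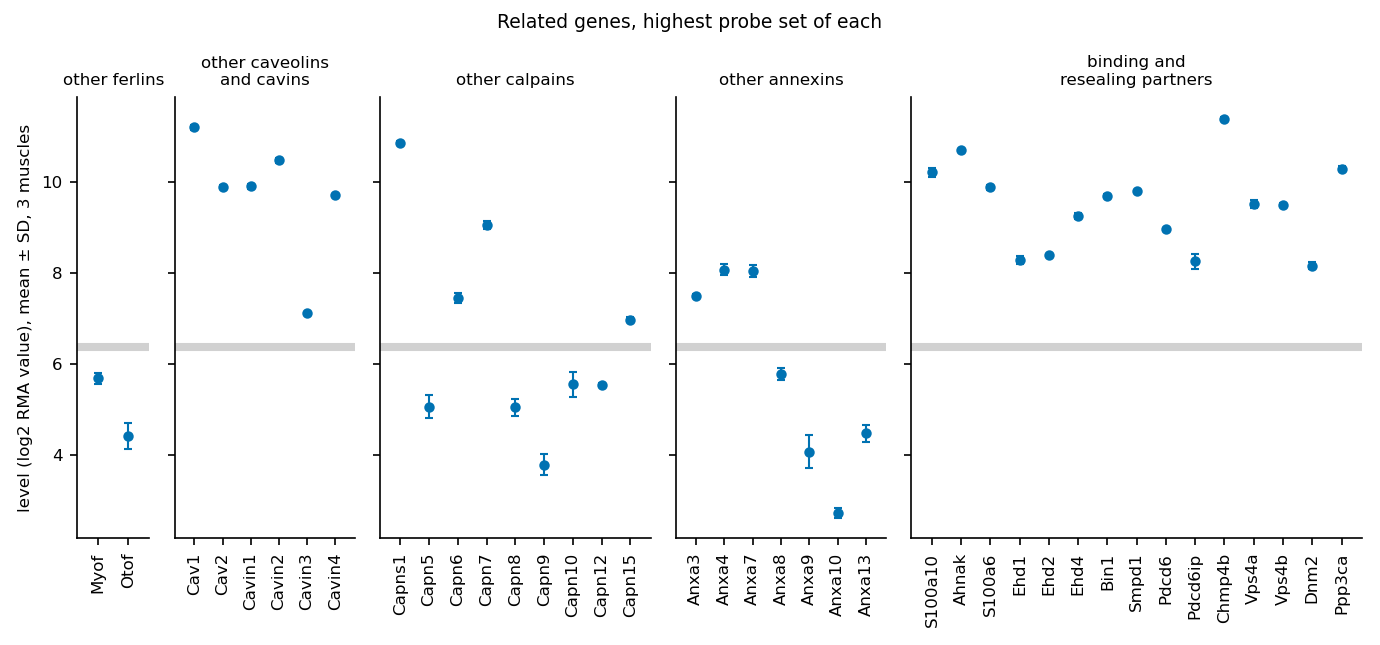
Mean ± SD over 3 muscles (vertical, log2 RMA value) of the highest probe set of each of 39 related genes, by family, with the range of the background level in grey; levels of different probe sets are not ranked against each other. The measured ferlins, 5 calpains and 4 annexins lie below the band, and all 6 caveolins and cavins and all 15 partners above it.

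Annexins, Capn1, Capn2 and Cast are made by many cell types, and in whole tissue more cells of a type and more RNA per cell cannot be told apart. Levels of single markers given next are those of the highest probe set. Mean levels of a list cover all its probe sets, also those below background. Fibroblast markers were above background for 9 of 9 measured genes, with Col1a1 at 11.36 ± 0.07 and Col1a2 at 12.88 ± 0.04. Their mean level was 10.44, 10.49 and 10.44 in muscles 1, 2 and 3. Endothelial markers were above background for 9 of 10, with Pecam1 at 6.49 ± 0.10 and Cdh5 at 8.49 ± 0.17. Their mean level was 6.89, 6.85 and 6.88. Pecam1 cleared the background by only 0.03, 0.15 and 0.16 in muscles 1, 2 and 3. The other Cdh5 probe set was below it in every muscle, at 4.56 ± 0.30. For smooth muscle and pericytes the count was 7 of 8, with Myh11 at 7.20 ± 0.09. Acta2 was at 11.24 ± 0.02 by a probe set whose suffix _s marks transcripts of several genes, and below background in every muscle, at 3.33 ± 0.07, by its other. Adipocyte markers gave 5 of 6, with Adipoq at 10.51 ± 0.10 and Fabp4 at 12.23 ± 0.02. The satellite cell marker Pax7 was below background at 5.31 ± 0.19 and Myf5 was at 6.56 ± 0.13, with 5 of 8 markers above. Of the Schwann cell markers 3 of 4 were above, with Mbp at 10.04 ± 0.04 and Pmp22 at 11.31 ± 0.03.

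Neutrophils and macrophages make much Anxa1, and their markers were looked at beside it. Of 10 macrophage markers 6 were above background in every muscle and 3 in none, with a mean level of 7.42, 7.41 and 7.37 in muscles 1, 2 and 3. Of the 11 macrophage probe sets above background in at least 1 muscle 7 were lowest in muscle 3, where 47.2% of all probe sets tested were lowest too. Adgre1 was at 8.44, 8.59 and 8.29, so it was highest in muscle 2, unlike Anxa1. Csf1r was at 9.85, 9.85 and 9.69 by its highest probe set, lowest in muscle 3. By 1419873_s_at, at 8.36, 8.39 and 8.34, it was lowest there too. By 1423593_a_at, at 6.99, 6.92 and 7.16, it was highest there. Of 7 neutrophil markers 6 were below background in every muscle, and their mean level was 4.97, 5.13 and 5.01. The exception, S100a8, was at 7.24, 7.12 and 6.93, the order of Anxa1, by a probe set whose suffix _s marks transcripts of several genes. S100a9 was at 5.88, 5.79 and 5.65, the same order but below background throughout. None of the other neutrophil markers, all below background too, had that order. The part of these cells in the annexin levels was not tested.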

How the data were processed

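Per the labels' protocols, Trizol was used on normal muscle and 500 ng of RNA entered the labelling. The authors deposited log2 values from RMA, named in the submitters' processing notes, 1 per probe set and array. RMA subtracts background, quantile-normalizes and summarises probes; for neither its version nor the set of arrays normalized jointly is anything given in the sources used here. The normalization would hide a change shared by most genes, and without probe-level signals or detection calls saturation could not be tested.

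GEO's platform annotation gave 1 gene for 20393 of 22690 probe sets, several for 691 and none for 1606; 0 of those with several genes named a member. Entrez numbers of 20364 matched RefSeq (GRCm38.p6), with no symbol changed. Each probe set was described on its own by its values, mean and SD. Background levels, the limma 3.58.1 variance test (R 4.3.3; robust prior with a trend, 2 degrees of freedom, Benjamini-Hochberg at 0.05) and the counts covered all probe sets with 1 gene. With 3 arrays their number limits the precision. The test was tested on simulated data of 10126 probe sets, 100 for each size of move. Members and lists were chosen with earlier results of these data known. Named are all members, the first 4 measured genes of each related list and of the muscle list, and the first 2 of each other cell type. Any related gene called or with a range of at least 1 was to be named too. S100a8 and S100a9, which are also the first 2 of the neutrophil list, and Cavin4 and Capn15 were named after their values were seen. A planned comparison of protein sequences was not made. Python 3.11.15 with numpy 2.4.6, pandas 2.3.3 and matplotlib 3.10.9 did the rest.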

Additional observations from a re-analysis of the deposited data

How the results depend on the processing

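Quantile normalization, median centring, other background levels, other choices of probe sets, other limma priors and leaving out each muscle were tried, the background without loricrin (Lor) after seeing the data. Of 228 values under these alternatives 219 stayed within the spread or a factor of 1.5. Part of those was fixed in advance. A member's mean level cannot leave its spread under median centring or when a muscle is left out. Under each alternative limma called 0 member probe sets. That count says nothing where limma called 0 of all probe sets tested. This was so without muscle 1, without muscle 2, with probe sets averaged, without a trend and without the robust prior. Under the other settings it called from 1, at the 99th percentile background, to 24. With only probe sets without a suffix letter, 6 member probe sets of 6 genes were above background, against 12 of 10 genes. Dysf, Capn3, Anxa2 and Anxa5 then have no detected probe set left. The related counts there were 4 caveolins and cavins, 2 calpains, 2 annexins and 9 partners, in place of 6, 4, 3 and 15. With the background at the 99th percentile of its genes 9 member probe sets, not including Dysf, were above it. So were 5 other caveolins and cavins, 2 other calpains and 1 other annexin. With probe sets averaged 9 of the 10 members, all but Anxa2, were above background. The related counts were then 5 caveolins and cavins, 2 calpains and 12 partners. Without Lor the background was 6.03 to 6.16 and 1417229_at of Capn1 was above it in every muscle, for 13 probe sets. The median SD of 0.0434 ran from 0.0286, without muscle 1, to 0.0498 when a muscle was left out, and the median departure of muscle 2 from -0.0623, without muscle 3, to 0.0128. The median departure of muscle 3 was 0.0098 after quantile normalization, against -0.0236. No paired analysis was possible because there is a single group. The SD of dim probe sets, and 3 muscles, limit what could be seen.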
